A study of Mus musculus with 4 samples.

Results

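The genes described here are p53 and a set of its best known transcriptional targets, in mouse embryonic fibroblasts with and without PTIP. The list held 10 symbols, and every probe set annotated to only one of them was taken. The platform annotation used here names 15 such probe sets for 7 genes, Mdm2, Ccng1, Trp53inp1, Bbc3, Pmaip1, Phlda3 and Sesn1, out of 18193 genes with a probe set of their own. It names none for Trp53, Bax or Gdf15, so these 3 were not analysed here. All 7 genes passed the level filter, as did 13 of their 15 probe sets.

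Immortalized fibroblasts carrying floxed PTIP alleles on both chromosomes received a retrovirus with Cre recombinase, giving the PTIP -/- group, or the empty vector, giving the PTIP +/+ group. Both groups were grown in serum and selected with puromycin, and 2 RNAs of each, numbered 1 and 2 in the labels, were hybridised to 1 Affymetrix array per RNA. The labels do not say what a number stands for, such as a separate culture, infection or day, so p-values measure only the spread between these RNAs. Nor do they say how the cells were immortalized or whether their Trp53 gene is intact. The floxed alleles, the retroviral infection and the selection are shared by both groups.

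The protein p53 is a transcription factor held at low levels by MDM2, a ubiquitin ligase that is itself a p53 target, so that the pair forms a feedback loop. When DNA is damaged or growth signals are abnormal, p53 accumulates and switches on genes that arrest the cell cycle, repair DNA, slow growth signalling or start apoptosis. Serial culture of embryonic fibroblasts engages the same route through ARF, a product of Cdkn2a that binds MDM2, and immortal lines commonly carry a lesion in one of these genes. PTIP, encoded by Paxip1, is a subunit of the MLL3/MLL4 histone methyltransferase complexes and is also recruited to DNA breaks.

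Signals are linear array intensities with the same trimmed mean on every array. Between 34.1% and 40.6% of probe sets on an array lay below the level filter of 47.68, the 40th percentile of probe-set means. Paxip1 read 74.6 and 43.5 in PTIP -/- replicates 2 and 1, against 1040.1 and 1029.5 in PTIP +/+ replicates 2 and 1. All 10 fibroblast markers lay above the filter on every array, the brightest being Vim, with summed signals of 184285 and 203154 in PTIP -/- and 229262 and 213565 in PTIP +/+. Over all 12509 genes tested, signals of same-numbered arrays correlated more closely (Pearson's r of 0.945 and 0.969 across genes) than those of the same genotype (0.904 and 0.883), so each result below is given by genotype and by number.

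The promoters of 5 of the 7 genes were in the RefSeq promoter table (GRCm38.p6), which holds 250 bases before and 50 bases after each start. They were searched on both strands for the p53 decamer consensus, a pair of which makes up the usual p53 response element. It occurred in 3 of their 8 promoters, those of Ccng1 and Mdm2 and 1 of those of Sesn1, against 8.4% of 32851 promoters in the table. The 3 promoters are shown because their genes differ in how they varied between arrays, with the decamer in capitals. A match describes the letters only, and the absence of one, as in Phlda3 and Bbc3, says nothing about regulation from outside this window.
Ccng1, chr11:40755237-40755536, minus strand: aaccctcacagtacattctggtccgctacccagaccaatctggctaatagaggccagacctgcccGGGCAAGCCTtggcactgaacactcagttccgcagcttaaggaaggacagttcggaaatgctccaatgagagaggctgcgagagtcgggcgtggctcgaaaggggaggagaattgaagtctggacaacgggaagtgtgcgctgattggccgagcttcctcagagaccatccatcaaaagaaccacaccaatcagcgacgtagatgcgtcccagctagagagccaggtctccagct
Mdm2, chr10:117710709-117711008, minus strand: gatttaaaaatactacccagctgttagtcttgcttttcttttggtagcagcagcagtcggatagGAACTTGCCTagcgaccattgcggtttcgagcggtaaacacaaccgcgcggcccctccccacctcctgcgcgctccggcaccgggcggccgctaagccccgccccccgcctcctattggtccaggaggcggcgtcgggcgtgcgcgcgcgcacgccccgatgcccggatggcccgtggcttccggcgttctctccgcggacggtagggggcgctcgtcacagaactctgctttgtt
Sesn1, chr10:41887189-41887488, plus strand: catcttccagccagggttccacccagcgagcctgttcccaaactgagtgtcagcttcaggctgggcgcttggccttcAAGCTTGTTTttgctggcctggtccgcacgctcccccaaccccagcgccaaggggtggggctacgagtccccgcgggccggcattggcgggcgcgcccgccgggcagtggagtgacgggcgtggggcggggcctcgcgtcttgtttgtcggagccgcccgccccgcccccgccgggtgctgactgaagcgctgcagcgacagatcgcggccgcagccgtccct

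Between genotypes, the p53 targets did not move as a block. Within both replicate numbers 5 of the 7 genes were higher in PTIP -/-, namely Trp53inp1, Pmaip1, Ccng1, Mdm2 and Sesn1, and 2 were lower, Bbc3 and Phlda3. Over all genes tested, 33.9% were higher and 25.8% lower in both numbers. On each gene's brightest probe set, differences reached 1.5-fold in both numbers for Trp53inp1 alone. By that measure 3.43% of all genes were higher and 2.21% lower. The median log2 difference of the 7 genes was 0.45, with 0.63 in replicate 2 and 0.20 in replicate 1, beside 0.05 over all genes. With arrays centred on their medians it was 0.27, beside -0.13 over all genes. With limma and Benjamini-Hochberg adjustment 0 of the 7 passed, as did 0% of genes in either direction. Paxip1, the deleted gene, did not pass either (log2 -4.18 ± 0.36, SE, limma adjusted p = 0.999). Failing this test is therefore no sign that a gene is unchanged. At an unadjusted p under 0.05 there were 168 genes higher and 118 lower, which is 1.34% and 0.943% of genes. None of the 7 was among them on its brightest probe set.

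**Figure D1:**
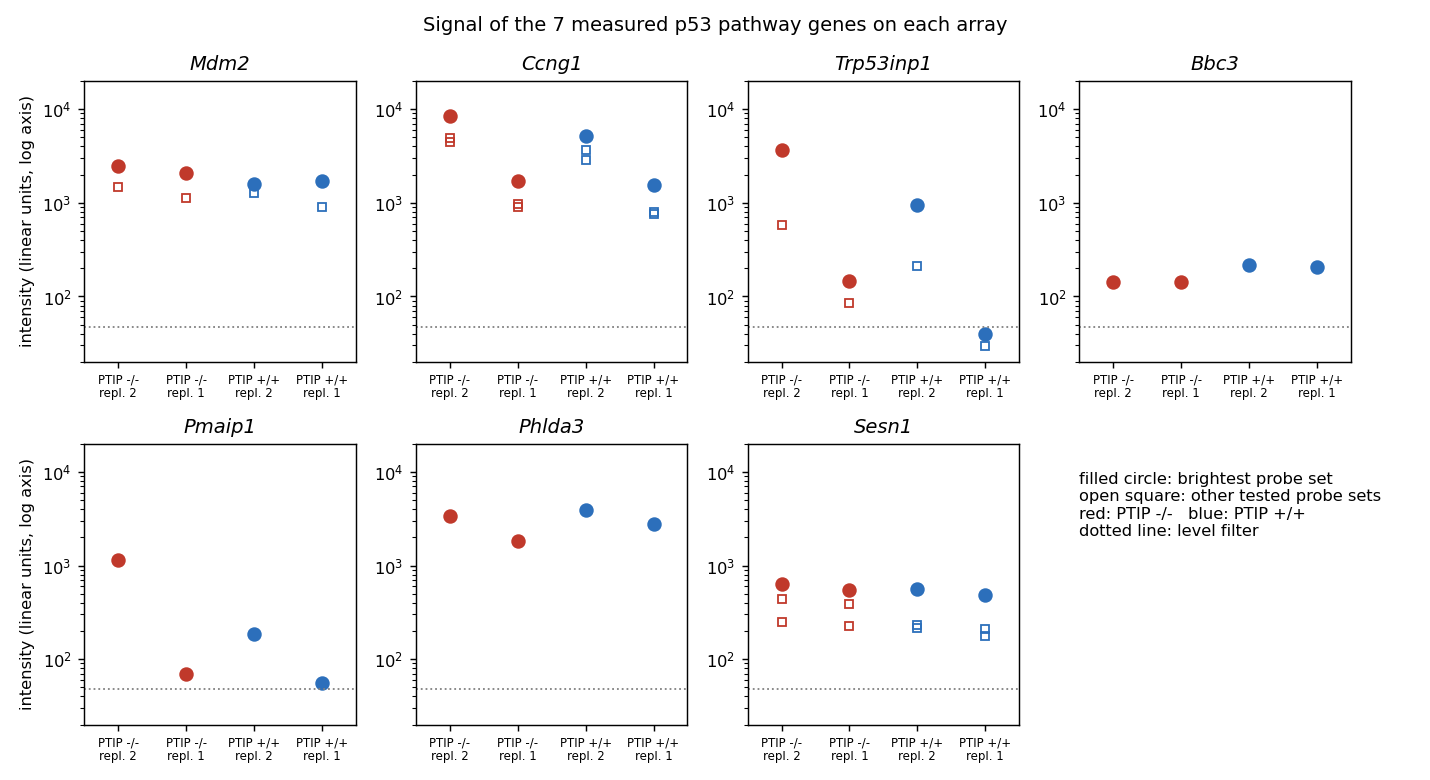
Intensity of each tested probe set of the 7 genes (log axis) on the PTIP -/- and PTIP +/+ arrays, with filled circles for the brightest probe set, open squares for the others and a dotted line at the level filter of 47.68. The signals of Ccng1, Trp53inp1 and Pmaip1 separate the replicate numbers, while those of Bbc3 and the brightest Mdm2 probe set separate the genotypes.

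Mdm2, the ligase that restrains p53, was modestly higher without PTIP. The brightest of its 3 probe sets gave signals of 2482.7 and 2059.1 in PTIP -/- replicates 2 and 1, against 1606.8 and 1693.3 in PTIP +/+ replicates 2 and 1. The groups did not overlap, as for 16.6% of all genes on the higher side. The log2 difference was 0.45 ± 0.26 (SE, n = 2 arrays per genotype), or 1.37-fold, with 1.55-fold in replicate 2 and 1.22-fold in replicate 1. A second Mdm2 probe set gave 1.15-fold and 1.27-fold higher, with overlapping groups at 1464.8 and 1138.7 in PTIP -/-, against 1268.7 and 896.3 in PTIP +/+. Its remaining probe set was dim, lying above the filter on the PTIP -/- replicate 1 array alone at 52.3.

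Ccng1 and Trp53inp1 also belong to the feedback arm of the pathway. Ccng1, cyclin G1, which works with the phosphatase PP2A on MDM2, read 8509.0 and 1730.9 in PTIP -/- replicates 2 and 1, against 5133.5 and 1535.7 in PTIP +/+ replicates 2 and 1. The groups overlapped, since both replicate 2 arrays exceeded both replicate 1 arrays. Within the numbers it was 1.66-fold and 1.13-fold higher in PTIP -/- (log2 difference over all arrays 0.45 ± 1.03, SE). Its other 2 probe sets were 1.35-fold and 1.53-fold higher in replicate 2 and 1.21-fold and 1.18-fold higher in replicate 1.

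Trp53inp1, a stress-induced protein that strengthens the pro-apoptotic and autophagic output of p53, had higher signals in PTIP -/- in both numbers. It read 3689.3 and 145.9 in PTIP -/- replicates 2 and 1, against 944.6 and 39.3 in PTIP +/+ replicates 2 and 1. Within replicate 2 it was 3.91-fold higher in PTIP -/-, and within replicate 1 at least 3.06-fold higher, the PTIP +/+ signal there being below the filter. A second probe set gave 2.75-fold and at least 1.79-fold. Over all arrays the log2 difference was 1.93 ± 2.27 (SE), an error wider than the difference because the fit counts the gap between the numbers as spread.

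The BH3-only genes, whose products trigger apoptosis by neutralising or bypassing anti-apoptotic BCL2 proteins, went different ways. Bbc3, which encodes PUMA, read 142.4 and 141.0 in PTIP -/- replicates 2 and 1, against 218.3 and 206.9 in PTIP +/+ replicates 2 and 1. The groups did not overlap, as for 12.1% of genes on the lower side, and replicates of 1 genotype lay within 1.06-fold of each other. It was 1.53-fold lower in replicate 2 and 1.47-fold lower in replicate 1 (log2 -0.58 ± 0.24, SE, limma adjusted p = 0.999).

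Pmaip1, which encodes NOXA, read 1140.4 and 68.6 in PTIP -/- replicates 2 and 1, against 186.9 and 55.2 in PTIP +/+ replicates 2 and 1. A single array, PTIP -/- replicate 2, stood far above the other 3. Within replicate 2 the gene was 6.10-fold higher in PTIP -/-, and within replicate 1, where both signals were close to the filter, 1.24-fold higher. These log2 differences, 2.61 and 0.31, lay 2.30 apart, and with 4 arrays no residual degree of freedom is left to test that gap.

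Phlda3 and Sesn1 act on growth signalling. Phlda3, which competes with the kinase AKT for membrane lipids, read 3408.9 and 1827.6 in PTIP -/- replicates 2 and 1, against 3891.5 and 2776.4 in PTIP +/+ replicates 2 and 1. It was 1.14-fold lower in replicate 2 and 1.52-fold lower in replicate 1, with overlapping groups (log2 -0.40 ± 0.43, SE). Sesn1, sestrin 1, an inhibitor of mTORC1 signalling, read 632.4 and 553.3 in PTIP -/-, against 560.6 and 482.4 in PTIP +/+, on its brightest probe set. That is 1.13-fold and 1.15-fold higher, within the spread between the numbers.

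The probe sets of Sesn1 disagreed in size. Another one read 434.7 and 389.2 in PTIP -/- replicates 2 and 1, against 231.9 and 207.9 in PTIP +/+, which is 1.87-fold higher in both numbers with groups well apart. Tested among all 27022 probe sets above the filter, it had a limma p of 0.0249 and did not pass after adjustment. Another gave 1.18-fold and 1.27-fold higher, and the last was below the filter on 3 arrays. The names of the brightest pair end in _s_at, which on these arrays marks probes shared by several transcripts, and which of them each probe set reads was not tested.

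**Figure D2:**
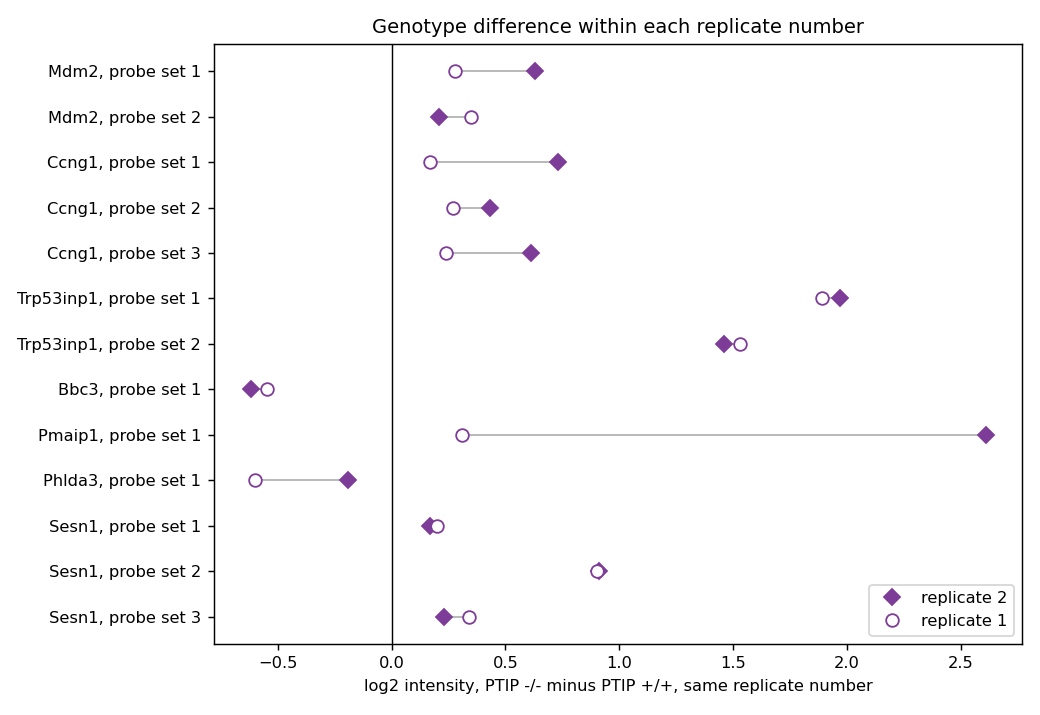
Log2 intensity of PTIP -/- minus PTIP +/+ within replicate 2 (diamonds) and replicate 1 (open circles) for the 13 tested probe sets, numbered by brightness within a gene. Every probe set lies on 1 side of 0 in both numbers, and Pmaip1 has the widest gap, 2.61 against 0.31.

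The direction of 4 genes in the fit by genotype depended on which arrays were used, though each kept 1 direction within both numbers. Leaving out any 1 array leaves the numbers unequal between genotypes, so the gap between numbers enters the genotype difference. Leaving out PTIP -/- replicate 2 turned the log2 difference to -0.70 for Ccng1, -0.40 for Trp53inp1 and -0.57 for Pmaip1. Leaving out PTIP +/+ replicate 1 gave -0.42 for Ccng1 and -0.36 for Trp53inp1, and Phlda3 came to 0.05 without PTIP -/- replicate 1. The median of the 7 genes was -0.57 without PTIP -/- replicate 2 and -0.36 without PTIP +/+ replicate 1. Bbc3 and Mdm2 kept their direction in all 4 cases, at -0.62 to -0.55 and 0.32 to 0.59.

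Between the replicate numbers, 3 of the p53 targets stood several-fold apart. In both genotypes the genes at least 1.5-fold higher in replicate 2 were 3 of the 7, Trp53inp1, Pmaip1 and Ccng1, and 0 were that much lower, against 9.24% and 8.87% of all genes. In 5 of 7 genes both replicate 2 arrays lay above both replicate 1 arrays, against 25.5% of all genes, and in 0 below, against 29.7%. The direction was the same in both genotypes for 6 genes, all higher, against 33.0% of all genes higher and 38.1% lower. The median log2 difference was 0.69, with 0.90 within PTIP -/- and 0.49 within PTIP +/+, beside -0.05 over all genes. Members that passed in limma numbered 0, against 0.488% of genes that passed on the higher side and 0.168% on the lower. At an unadjusted p under 0.05 the 3 genes named above lay on the higher side and 0 on the lower, against 10.0% and 10.4% of genes.

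Trp53inp1 stood farthest apart. Set against replicate 1 of the same genotype, replicate 2 was 25.3-fold higher in PTIP -/- and at least 19.8-fold higher in PTIP +/+ (log2 4.62 ± 0.94, SE, limma adjusted p = 0.128). With genotype as a block the adjusted p was 0.0412 and with arrays centred on their medians 0.0401, in a range up to 0.390 over the 13 alternatives. Its second probe set gave 6.79-fold and at least 4.41-fold.

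Ccng1 gave much the same ratio on all 3 probe sets. They were 4.92-fold, 5.14-fold and 4.85-fold higher in replicate 2 within PTIP -/-, and 3.34-fold, 4.60-fold and 3.75-fold within PTIP +/+. On the brightest the log2 difference was 2.02 ± 0.31 (SE, limma adjusted p = 0.0957). It passed with arrays centred on their medians (adjusted p = 0.0297) and with a variance trend (adjusted p = 0.0383), and its adjusted p ran up to 0.374 over the 13 alternatives.

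For Pmaip1, replicate 2 was 16.6-fold higher than replicate 1 in PTIP -/- and 3.39-fold higher in PTIP +/+ (log2 2.91 ± 0.91, SE, limma adjusted p = 0.206). Phlda3 was 1.87-fold and 1.40-fold higher (log2 0.69 ± 0.28, SE, adjusted p = 0.274 in limma). Sesn1 was 1.14-fold and 1.16-fold higher, and Bbc3 differed by 1.01-fold and 1.06-fold. Mdm2 was 1.21-fold higher in replicate 2 within PTIP -/- and 1.05-fold lower within PTIP +/+ on its brightest probe set, while the second gave 1.29-fold and 1.42-fold higher.

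**Figure D3:**
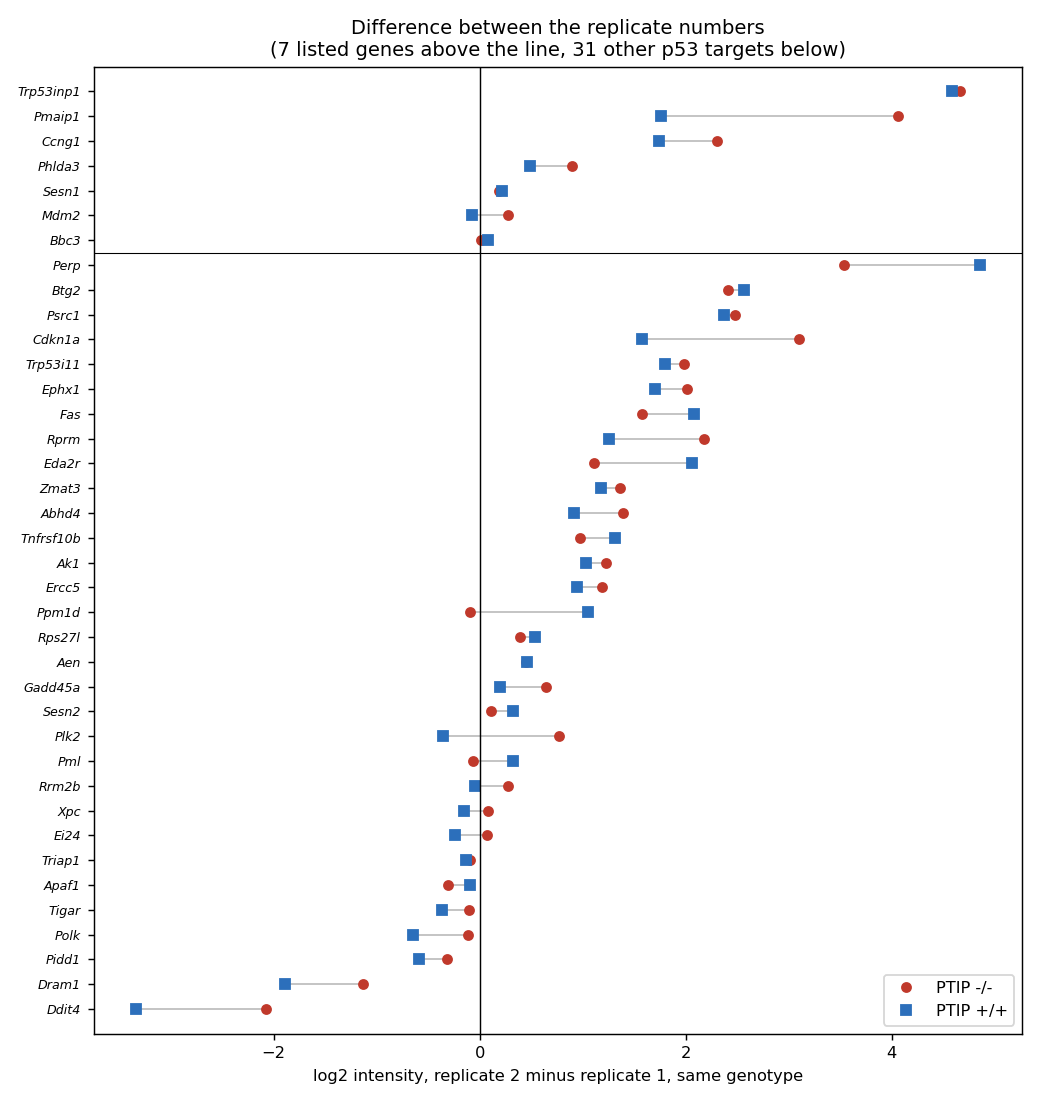
Log2 intensity of replicate 2 minus replicate 1 within PTIP -/- (circles) and PTIP +/+ (squares) for the 7 listed genes (above the line) and 31 other p53 targets (below it). The values reach 4.66 and 4.59 for Trp53inp1, and Ddit4 lies at the other end at -2.08 and -3.34.

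Other p53 targets, a list of 34 genes of which 33 had a probe set and 31 passed the level filter, also differed by number. Both replicate 2 arrays lay above both replicate 1 arrays for 16 genes and below for 5, against 25.5% and 29.7% of all genes. In both genotypes 14 were at least 1.5-fold higher and 2 at least 1.5-fold lower, against 9.24% and 8.87% of all genes. The list's median log2 difference was 0.46, with 0.64 within PTIP -/- and 0.54 within PTIP +/+, beside -0.05 over all genes. Of the 31, 2 passed on the higher side and 0 on the lower, against 0.488% and 0.168% of all genes. Btg2, an antiproliferative cofactor of the CCR4-NOT deadenylase, read 1260.9 in replicate 2 and 238.0 in replicate 1 of PTIP -/-, and 1262.4 in replicate 2 and 212.7 in replicate 1 of PTIP +/+. It was 5.30-fold and 5.94-fold higher (log2 2.49 ± 0.19, SE, limma adjusted p = 0.0341). Its genotype difference was 0.08 ± 1.24 (log2, SE). Psrc1, a microtubule-binding protein of the spindle, was 5.59-fold and 5.17-fold higher (log2 2.43 ± 0.19, SE, limma adjusted p = 0.0348). Those calls held under 7 and 6 of 13 alternatives. Both were lost without each single array in turn, with genotype as a block and without a level filter, and that of Psrc1 also over the mean of its probe sets, the adjusted p running from 0.0115 to 0.196 for Btg2 and from 0.0108 to 0.200 for Psrc1.

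Further targets were chosen after their values were seen. Cdkn1a, the CDK inhibitor p21 that carries out p53-dependent arrest, read 6258.2 and 729.8 in replicates 2 and 1 of PTIP -/-, and 2849.8 and 955.1 in replicates 2 and 1 of PTIP +/+. Replicate 2 was 8.58-fold and 2.98-fold higher (log2 2.34 ± 0.45, SE, adjusted p = 0.118 in limma). On this brightest probe set its genotype difference turned with the number, at 2.20-fold higher in PTIP -/- in replicate 2 and 1.31-fold lower in replicate 1. A second Cdkn1a probe set was 1.71-fold higher in PTIP -/- in replicate 2 and nearly level in replicate 1, at 1.01-fold lower. Perp, a desmosomal membrane protein, was 11.6-fold and at least 18.9-fold higher in replicate 2, and Ephx1, an epoxide hydrolase, 4.03-fold and 3.26-fold. In both genotypes 18 of the 31 targets were higher in replicate 2 and 7 lower, against 33.0% and 38.1% of all genes. The 7 lower were Ddit4, Dram1, Pidd1, Apaf1, Triap1, Polk and Tigar. The 2 of them at least 1.5-fold lower in both were Ddit4, an mTORC1 inhibitor also induced by hypoxia, at 4.24-fold and 10.1-fold lower, and Dram1, a lysosomal protein of autophagy, at 2.18-fold and 3.69-fold lower.

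**Figure D4:**
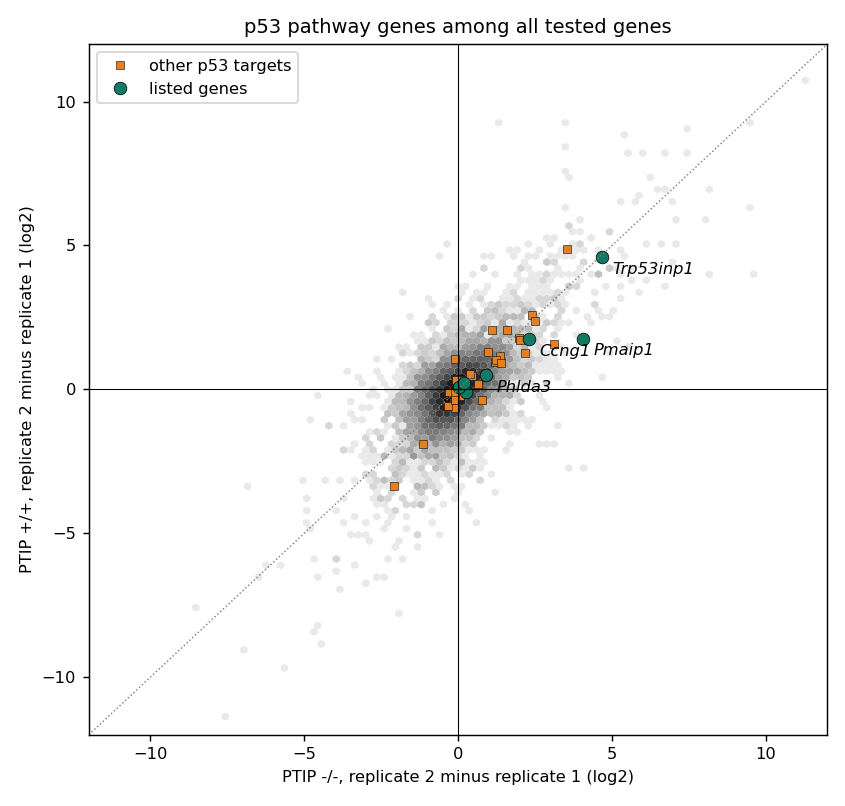
Log2 difference of replicate 2 minus replicate 1 for 12509 genes (grey, darker where more genes lie), within PTIP -/- on the x axis and PTIP +/+ on the y axis, with the 7 listed genes (circles) and 31 other p53 targets (squares). Trp53inp1, Pmaip1 and Ccng1 lie far to the upper right, Pmaip1 at 4.06 and 1.76, whereas Mdm2, Bbc3 and Sesn1 lie near the centre.

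By genotype the same 31 targets had a median log2 difference of 0.25, beside 0.05 over all genes, and 0 passed. The median was 0.37 in replicate 2 and 0.04 in replicate 1. With centred arrays it was 0.07, beside -0.13 over all genes. In both numbers 5 were at least 1.5-fold higher in PTIP -/-, namely Eda2r, Fas, Trp53i11, Rprm and Abhd4. In both, 1 was at least 1.5-fold lower, the nuclease gene Aen. Over all genes, 3.43% were that much higher and 2.21% that much lower. Eda2r and Fas had PTIP +/+ replicate 1 signals below the filter, at 29.2 and 47.3. Aen, named after its values were seen, read on its brightest probe set 1538.8 and 1130.1 in PTIP -/- replicates 2 and 1, against 2348.8 and 1711.7 in PTIP +/+. It was 1.53-fold and 1.51-fold lower, close to the 1.53-fold and 1.47-fold of Bbc3. Dimmer Aen probe sets gave 1.24-fold and 1.36-fold lower, and 1.21-fold and 1.44-fold lower, in replicates 2 and 1. The dimmest was 1.35-fold lower in replicate 2 and 1.08-fold higher in replicate 1. The list's genotype median was 0.03 without PTIP -/- replicate 2 and -0.05 without PTIP +/+ replicate 1, the numbers then being unequal between genotypes.

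Regulators and relatives of p53 went both ways by genotype. Of 23 tested, 14 were higher and 9 lower in PTIP -/- (8 and 15 with arrays centred on their medians), beside 7014 higher and 5495 lower of all genes, with a median of 0.10, and 0 passed in either comparison. None was at least 1.5-fold apart in 1 direction in both numbers, against 3.43% of all genes higher and 2.21% lower. Hipk2, a kinase that phosphorylates p53, named after its values were seen, was 1.56-fold higher in replicate 2 and 1.74-fold lower in replicate 1. Cdkn2a, the locus of the CDK inhibitor p16 and of ARF, read 609.1 and 2064.5 in PTIP -/- replicates 2 and 1, against 52.1 and 1563.2 in PTIP +/+ replicates 2 and 1. The PTIP +/+ replicate 2 signal, 52.1, was close to the filter, and the 11.7-fold and 30.0-fold given next rest on it. The single Cdkn2a probe set was 11.7-fold higher in PTIP -/- in replicate 2 and 1.32-fold higher in replicate 1 (log2 1.97 ± 1.82, SE, -0.48 without PTIP +/+ replicate 2). Between the numbers it was 3.39-fold lower in replicate 2 within PTIP -/- and 30.0-fold lower within PTIP +/+ (log2 -3.33 ± 1.22, SE, limma adjusted p = 0.240). Without PTIP -/- replicate 2 that was -5.11 and passed (adjusted p = 0.0456, in a range up to 0.588). The DNA damage kinase gene Atm had the lowest genotype difference of the list, at 1.18-fold and 1.43-fold lower in PTIP -/- (log2 -0.38 ± 0.29, SE), while its second probe set was 1.23-fold lower and 1.11-fold higher.

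Members of the BCL2 family other than the listed ones had a genotype median of 0.08 over 11 genes, 7 higher and 4 lower (5 and 6 with centred arrays), near the split of all genes, and a median of -0.29 between the numbers, with 0 passing in either. Bmf, another BH3-only gene, read 271.6 and 119.8 in PTIP -/- replicates 2 and 1, against 43.7 and 81.8 in PTIP +/+ replicates 2 and 1. It was at least 5.70-fold higher in PTIP -/- in replicate 2 and 1.46-fold higher in replicate 1 (log2 1.59 ± 0.57, SE, limma adjusted p = 0.999), and its other probe sets were below the filter on every array. Bok, a BAX-like effector, was 1.38-fold lower and 1.08-fold higher (log2 -0.17 ± 0.53, SE).

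Other genes moved with the replicate number beside the p53 targets. Among the fibroblast markers, Thy1 read 1500.7 and 239.2 in replicate 2 of PTIP -/- and PTIP +/+, against 14822.9 and 16080.1 in replicate 1. Pdgfra read 174.2 and 583.2 in replicate 2, against 3563.4 and 5010.1 in replicate 1. The other 8 fibroblast markers differed by at most 0.66 (log2) between the numbers within a genotype. Of the fat cell markers, Fabp4 read 4029.7 and 3351.8 in replicate 2, against 16.1 and 60.2 in replicate 1, while Adipoq and Cidec were below the filter on every array. The 4 fat cell markers with a probe set summed to 4213 and 3405 in replicate 2 of PTIP -/- and PTIP +/+, against 181 and 365 in replicate 1, sums carried by Fabp4 in replicate 2. Lpl did not follow it, with 155.1 and 41.0 in replicate 2, against 149.3 and 291.0 in replicate 1. Cdh1, Pecam1 and Myh3 were also below the filter on every array. By mean log2 signal the brightest epithelial, endothelial, blood and muscle markers were Epcam, Kdr, Csf1r and Des. On their brightest probe sets they lay between 70.2 and 436.1. Epcam read 291.5 and 220.4 in replicate 2 of PTIP -/- and PTIP +/+, against 436.1 and 356.0 in replicate 1. Its other probe set lay below the filter on every array, at 2.1 to 8.8. Krt19, another epithelial marker, was higher in replicate 2, with 345.7 and 1038.6, against 84.3 and 239.7 in replicate 1. Summed signals in replicate 2 and replicate 1 were 899 and 887 (PTIP -/-) and 1494 and 790 (PTIP +/+) for 6 epithelial markers, and 606 and 621 (PTIP -/-) and 501 and 623 (PTIP +/+) for 5 blood cell markers. For 4 endothelial markers they were 202 and 300 (PTIP -/-) and 260 and 169 (PTIP +/+), and for 4 muscle markers 189 and 192 (PTIP -/-) and 138.5 and 161 (PTIP +/+). A second Des probe set, outside these sums, read 108.2 and 219.5 in PTIP -/- replicates 2 and 1. In PTIP +/+ replicates 2 and 1 it read 19.5 and 32.3, below the filter. Bulk signals do not separate fewer cells of a type from less RNA per cell. The part of such differences in the p53 target values was not tested.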

How the data were processed

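The authors deposited 1 linear intensity for each of 45101 probe sets on each of 4 arrays. RMA is named, without a version, in the submitters' processing notes, whereas these intensities have different quantiles and a mean of 500 on every array once the top and bottom 2% are left out. No source used here gives the background correction or the probe summary.

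Values were taken to log2 after 1 value of 0 was set to 0.1, and 64 controls were dropped. The platform annotation gave 34945 probe sets 1 symbol, 932 several and 9160 none, and 34741 could be renamed by gene number from the RefSeq table of GRCm38.p6. The probe set brightest by mean log2 value stood for its gene, and 12509 genes at or above 47.68 were tested. PTIP -/- against PTIP +/+, and replicate 2 against replicate 1, were each fitted to all 4 arrays in limma 3.58.1 (R 4.3.3) without a covariate, leaving 2 residual degrees of freedom, with two-sided p-values and Benjamini-Hochberg adjustment over all genes. SE is that of the moderated fit. Differences within 1 number or 1 genotype compare 2 single arrays and carry no test, and an exact permutation test of 1 gene cannot go below p = 0.333. Where the dimmer array, or both arrays of the dimmer group, lay below 47.68, that value took the place of their signals and the text writes "at least"; counts of 1.5-fold differences use measured signals. Both fits were tested on simulated data with known differences and the same independent noise for every gene. No effect of the other factor was simulated, so that test does not cover a genotype fit beside a gap between numbers.

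The members and the 9 gene lists were chosen with earlier results of these data known. Named from the lists were members that passed in either comparison, otherwise the largest rise and fall by genotype, and the brightest of each list of markers.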

Additional observations from a re-analysis of the deposited data

Results flagged for a closer look

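Among the listed genes and those named by rule from the other lists, 3 differed in opposite directions in the 2 genotypes or the 2 numbers, and none of these gaps was tested. Genes outside that rule, such as Cdkn1a and Hipk2 by genotype on their brightest probe sets, did so too. The second Cdkn1a probe set was nearly level in replicate 1. Mdm2 on its brightest probe set was higher in replicate 2 than in replicate 1 within PTIP -/- (log2 0.27) and lower within PTIP +/+ (-0.08), a gap of 0.35 that its second probe set did not show. Bmf was higher in replicate 2 within PTIP -/- (1.18) and lower within PTIP +/+ (-0.90), a gap of 2.09 in measured signals. One of these, 43.7 in PTIP +/+ replicate 2, is below the level filter, so neither of the last values is exact. Bok was lower in PTIP -/- than in PTIP +/+ in replicate 2 (-0.46) and higher in replicate 1 (0.11), a gap of -0.57. Groups of 2 arrays are too small to look for single arrays that stand apart.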

How the results depend on the processing

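With 2 arrays per group the number of arrays limits every value, and signals under 47.68 give bounds only. Between genotypes 0 genes passed under every alternative, the replicate block included (0 genes, median of the 7 genes 0.45). The numbers share no stated source; deviations from the group means of same-numbered arrays correlated at 0.686 over genes, and with genotype as a block 80 genes passed between the numbers instead of 82. In the genotype comparison the replicate block moved genes at an unadjusted p under 0.05 to 612 higher and 370 lower, against 168 and 118 without it. Centring arrays on their medians moved the median of all genes by -0.18 between genotypes and 0.19 between numbers, and turned genes at an unadjusted p under 0.05 between genotypes to 76 higher and 204 lower.

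Genes that passed between the numbers came to 127 with quantile normalization, 361 with centred arrays, 0 without a level filter (1190 higher and 1315 lower at an unadjusted p under 0.05 in limma), 145 with the filter at the 60th percentile, 284 with a variance trend, 51 with each gene's probe sets averaged, 151 over all probe sets and 226 with signals raised to 47.68. Leaving out 1 array gave 0 to 85: 0 without PTIP -/- replicate 1, PTIP +/+ replicate 2 or PTIP +/+ replicate 1. The cause was not tested. The median of the 7 genes then ran from -0.57 to 0.59 between genotypes and from 0.39 to 0.99 between numbers.

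Differences near 0 turned sign: Btg2 (-0.10) and Psrc1 (-0.10) between genotypes with centred arrays, and over the mean of probe sets Btg2 (-0.00) between genotypes and Mdm2 (-0.04) and Bmf (-0.22) between numbers. With 1 array left out the numbers are unequal between genotypes, so the genotype ranges that follow also hold the gap between numbers. Leaving out 1 array, genotype differences ran from -0.70 to 1.60 for Ccng1, -0.40 to 4.26 for Trp53inp1, -0.57 to 3.49 for Pmaip1, -0.85 to 0.05 for Phlda3, -1.20 to 1.36 for Btg2, -1.16 to 1.32 for Psrc1, -0.48 to 4.43 for Cdkn2a and -0.77 to 0.43 for Bok. Number differences ran from -0.22 to 0.41 for Mdm2, -0.26 to 0.35 for Bbc3 and -1.18 to 1.46 for Bmf. Signs turned in 19 of the 104 values from leaving out 1 array. A changed level filter, a variance trend, all probe sets or a block left each log2 difference unchanged, so no sign could turn there. The count below includes those settings and is no measure of robustness. In all, 294 of 336 alternative values of the named genes kept direction and side of the threshold, 24 turned, 13 lost a call and 5 gained one.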
